A study of Mus musculus with 19 samples.

Results

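CpG methylation at 8 imprinted genes was described in the livers of Mat1a knockout mice. The genes were Igf2r, Airn, Igf2, Kcnq1, Blcap, Nnat, Trappc9 and Gnas, and they were chosen by their differences in the authors' deposited tables. Every CpG site listed inside one of these genes or within 2 kb of either end was taken, by RefSeq coordinates for GRCm38.p6, whose primary coordinates are those of mm10. This gave 17 positions of 8525 listed over 3 tables, in 21 lines. Because membership rests on the same values, the differences below are a description and carry no test of their own.

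The assay was reduced-representation bisulfite sequencing of whole liver from 19 mice aged 10 months, which measures methylation of CpGs in DNA fragments cut at MspI and TaqαI sites. There were 8 wild-type (WT) animals without treatment, 6 animals with Mat1a knocked out (KO) on placebo, and 5 KO animals supplemented with S-adenosylmethionine (SAMe), and the series title gives 8 weeks of treatment. In adult liver the product of Mat1a synthesises SAMe, from which DNA methyltransferases take their methyl group. Strain, sex and the construction of the knockout allele were not given in the sources used here. WT mice received neither placebo nor SAMe, so genotype and treatment cannot be told apart in the placebo comparison (WT vs KO placebo) or in the SAMe comparison (WT vs KO SAMe). The remaining table compares the KO groups with each other. The tables hold 1 difference, p-value and q-value per site and no value per animal, level or coverage, so depth is unknown, no spread between animals can be given and the tissue label could not be checked against marker genes. A site missing from a table was below the thresholds or not covered. In whole liver, a shift in the share of cell types and a change within 1 cell type cannot be told apart.

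Imprinted genes are expressed from the maternal or the paternal allele only. The choice is set by control regions that are methylated on 1 parental chromosome from the egg or the sperm onwards and that keep this difference in somatic tissues. Many of these regions coincide with the start of a noncoding or paternally expressed transcript, and their methylation is copied at each cell division by the maintenance methyltransferase with the help of zinc finger proteins such as ZFP57. A methylation difference between groups of animals does not say which parental allele differed.

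Of the listed sites of the 8 genes, 7 lay 153 to 392 bp downstream of the annotated starts of Airn and Nnat, so the sequence before each of these starts is shown, from RefSeq on GRCm38.p6, plus strand, 5′ to 3′, with CpG dinucleotides in capitals. The Airn stretch is chr17:12741061-12741310 and the Nnat stretch is chr2:157559828-157560077.
Airn: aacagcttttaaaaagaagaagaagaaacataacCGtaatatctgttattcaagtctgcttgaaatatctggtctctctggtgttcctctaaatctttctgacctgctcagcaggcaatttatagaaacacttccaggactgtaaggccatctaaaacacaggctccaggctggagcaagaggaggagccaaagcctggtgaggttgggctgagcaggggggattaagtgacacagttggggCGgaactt
Nnat: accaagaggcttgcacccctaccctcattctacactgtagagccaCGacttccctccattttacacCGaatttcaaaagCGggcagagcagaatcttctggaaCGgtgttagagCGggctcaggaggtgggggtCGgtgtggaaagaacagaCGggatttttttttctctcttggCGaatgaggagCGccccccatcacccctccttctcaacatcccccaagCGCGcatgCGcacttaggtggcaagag

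The 250 bases before the Airn start held 2 CpG dinucleotides and the same length before Nnat held 12. Over windows of 300 bases reaching 50 bases past the start, Airn had 3 CpGs and Nnat 17, against a median of 7 over all 32851 windows of the RefSeq table. The listed sites of Airn and Nnat lay past the end of these windows, so the sequence around those sites was not counted or searched. RefSeq windows were present for 6 of the 8 genes, and Kcnq1 and Trappc9 had none. The hexamer TGCCGC, the known binding letters of ZFP57 when methylated, was searched on both strands. It occurred in 11.6% of all windows. Among the windows of the 6 genes it was found once at Nnat and once in 1 of the 4 Igf2 windows. It was in no window of Airn, Igf2r, Blcap or Gnas, the last of which had several windows. At Nnat the hexamer lay on the minus strand 27 bases after the start (chr2:157560105-157560110), shown here with its reverse complement in capitals on the plus strand.
Nnat motif: gccaccggggctGCGGCAttgcgcccagca

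The placebo comparison asked how imprinted loci differed between WT liver and KO liver on placebo. Of the 15 sites of these genes in the authors' deposited table, 12 were less methylated in KO and 3 more methylated. Lower sites fell in 5 of the 8 genes (Igf2, Kcnq1, Blcap, Nnat and Trappc9), where 7.15% of all 49980 annotated genes had one. These 5 are coding genes, and over coding genes the share was 12.5%. Kcnq1 and Trappc9 are also long, at 320 and 472 kb, and gene length was not allowed for. Higher sites fell in Igf2r and Airn, where 0.052% of annotated genes had one. These shares stand beside the counts only, since the genes were picked for having sites. No header says in which order the groups were subtracted. KO minus WT and SAMe minus placebo were assumed, as methylKit usually reports them, and with the other order all directions in the text would be opposite.

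**Figure D1:**
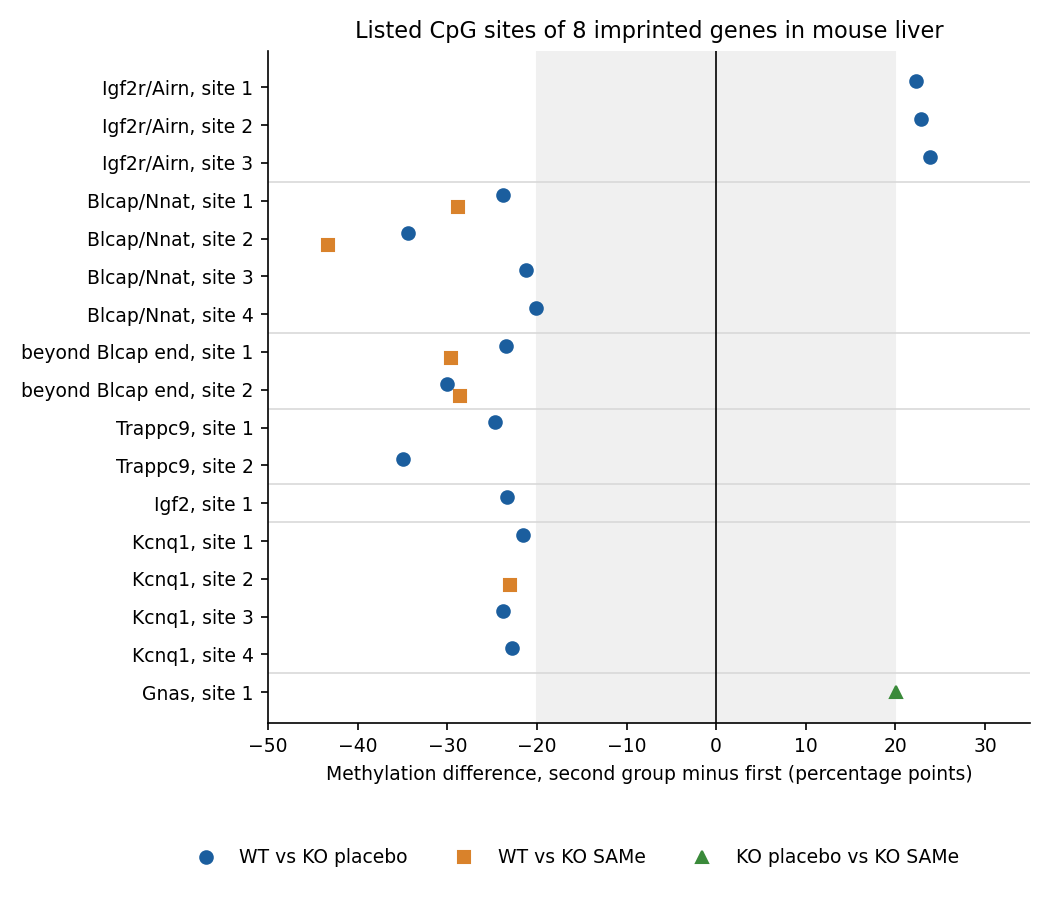
Methylation difference in percentage points for the 17 listed CpG positions of the 8 imprinted genes, 1 row per position in chromosomal order within a locus; circles are WT vs KO placebo, squares WT vs KO SAMe and the triangle KO placebo vs KO SAMe, each 1 value from the authors' deposited table without replicate error. The 3 Igf2r/Airn sites lie right of 20, the Blcap, Nnat, Trappc9, Igf2 and Kcnq1 sites lie left of −20, and the grey band marks differences too small to be listed.

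Igf2r encodes the receptor that takes up and degrades insulin-like growth factor 2 and is expressed from the maternal allele. Airn is the noncoding RNA that starts inside Igf2r, runs antisense to it on the paternal allele and silences it there. The start of Airn lies in the maternally methylated control region of this locus. The 3 higher sites were all here, on the plus strand of chromosome 17 within 36 bp. Methylation in placebo-treated KO liver was higher than in WT by 22.3 percentage points at position 12741590 (q = 1.33e-05) in the authors' deposited table. At position 12741607 the authors' deposited table gave 22.9 (q = 4.90e-06), and at position 12741625 it gave 23.9 (q = 1.94e-06). The 3 values thus differed by less than 2 percentage points from each other. The sites lay 279, 296 and 314 bp downstream of the Airn start and about 28.1 kb downstream of the Igf2r start. None was listed in the SAMe comparison or between the KO groups. Across the whole placebo table, runs of sites joined within 1 kb that held only higher sites numbered 26 of 4618, and 4 of them had at least 3 sites, the Airn run being 1 of these. The nearest listed sites outside the 2 genes were lower in KO, with −23.7 at 82.2 kb beyond Airn and −20.3 at 111 kb beyond Igf2r in the authors' deposited table for the placebo comparison.

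Nnat, a paternally expressed gene for a small membrane proteolipid, lies inside Blcap, which encodes a protein linked to cell growth control and runs on the opposite strand. The control region of the pair covers the Nnat start and is methylated on the maternal allele. All sites here were lower in KO. The difference in the placebo comparison was −23.8 percentage points at chromosome 2 position 157560231 (q = 2.10e-08), 153 bp after the Nnat start, in the authors' deposited table. It was −34.4 at position 157560247, 169 bp after the start, with q listed at 0 in the authors' deposited table. Further in, at 386 and 392 bp, the authors' deposited table gave −21.2 (position 157560464, q = 3.11e-09) and −20.1 (position 157560470, q = 2.70e-08). The losses were thus largest at the second site and close to the listing limit at the last 2.

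The first 2 Nnat sites were listed again in the SAMe comparison. The authors' deposited table gave −28.8 at position 157560231 (q = 5.24e-09) and −43.3 at position 157560247 (q listed at 0). The second value was the largest difference of any site of the 8 genes in the 3 tables. Of 5330 lower sites in that table, 382 had a larger loss. The sites at 386 and 392 bp were not listed with SAMe.

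**Figure D2:**
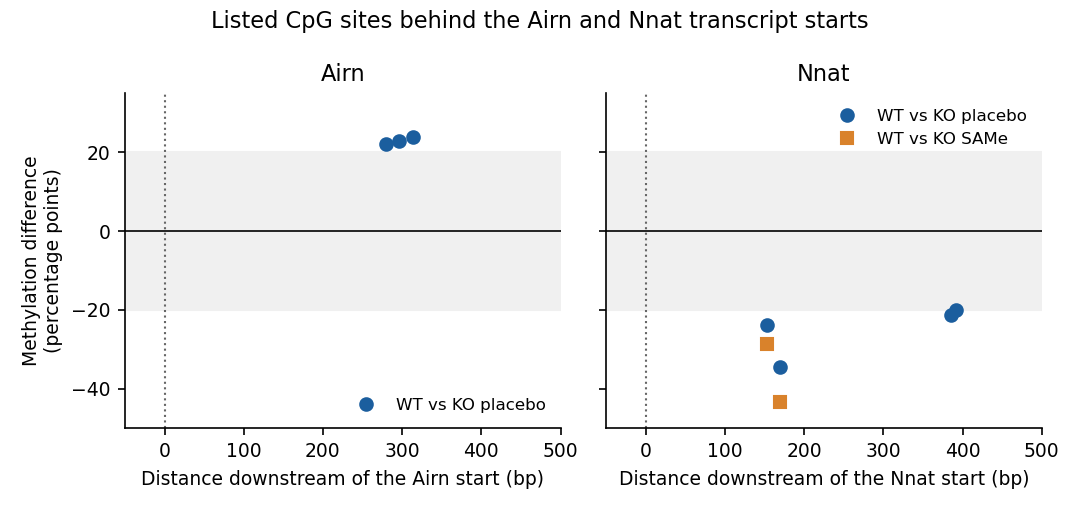
Methylation difference in percentage points against distance in bp downstream of the annotated Airn start (left) and Nnat start (right), 1 point per listed site and table, with the start as a dotted line and the unlisted range in grey. Airn sites at 279 to 314 bp lie between 22.3 and 23.9 in WT vs KO placebo alone, and Nnat sites at 153 to 392 bp lie between −20.1 and −43.3.

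Blcap also had 2 lower sites past its 3′ end, outside Nnat. They lay 1602 and 1578 bp beyond the gene, inside the limit of 2 kb, at chromosome 2 positions 157554760 and 157554784. They stood at −23.4 (q = 9.14e-09) and −30.0 (q = 2.63e-14) in the authors' deposited table for the placebo comparison. For the SAMe comparison the authors' deposited table gave −29.6 (q = 6.31e-13) and −28.6 (q = 4.11e-12). The site with the larger loss was thus the second with placebo and the first with SAMe. The first listed site outside the limit lay 15.9 kb beyond Blcap, where the authors' deposited tables gave −34.8 for placebo and −23.9 for SAMe.

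Trappc9 encodes a subunit of a vesicle tethering complex and shows a parental bias in expression in brain. It contains Peg13, a paternally expressed noncoding RNA whose start carries the maternally methylated control region. Trappc9 had 2 lower sites on chromosome 15 in the placebo comparison, 20 bases apart. The authors' deposited table gave −24.7 at position 72802545 (q = 1.30e-07) and −35.0 at position 72802565 (q = 5.71e-11). The latter was the largest loss among the 12 lower sites of the 8 genes in that comparison, and 1146 of 6678 lower sites in the whole table had a larger one. Both lay 213 kb from the nearer end of Trappc9 and outside Peg13. They were 3.06 and 3.04 kb from the nearer end of Peg13 and 7.78 and 7.76 kb from its other end. The distance to the Peg13 start was not measured. Neither was listed with SAMe.

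Igf2 encodes insulin-like growth factor 2, a fetal growth factor expressed from the paternal allele, and its imprint depends on a paternally methylated region near H19. It had 1 listed site, at chromosome 7 position 142665554. The authors' deposited table for the placebo comparison gave −23.3 percentage points (q = 1.26e-05). The site lay 1262 bp downstream of the first annotated Igf2 start and 4.28 kb upstream of the next, and inside the antisense transcript Igf2os. The window at that first start was poor in CpG, with 2 against a median of 7. The site was not in the other tables. The nearest listed site outside Igf2 was 69.7 kb away on the H19 side, at −20.4 (q = 8.34e-04) in the authors' deposited table for the placebo comparison.

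Kcnq1 encodes a voltage-gated potassium channel and is expressed from the maternal allele early in development. The start of the antisense RNA Kcnq1ot1, inside Kcnq1, is the maternally methylated control region of the domain. Kcnq1 had 4 lower sites, none of them at that start. For the placebo comparison the authors' deposited table gave −21.6 at chromosome 7 position 143154789 (q = 3.62e-04), −23.8 at position 143333197 (q listed at 0) and −22.8 at position 143333286 (q = 4.62e-12). The authors' deposited table for the SAMe comparison gave −23.0 at position 143332592 (q = 1.52e-11). The last 3 positions spanned 695 bp, 36.0 to 36.7 kb upstream of the Kcnq1ot1 start, and the SAMe site lay apart from the placebo sites, so no position of Kcnq1 was listed in both tables. The first site lay 142 kb downstream of that start, beyond the far end of Kcnq1ot1 by 58.3 kb.

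Gnas encodes the stimulatory G protein alpha subunit and, from other starts, further imprinted transcripts. It was the only 1 of the 8 genes with a listed site between the KO groups, where 0.22% of annotated genes and 0.384% of coding genes had a higher site. Gnas had none in either WT comparison. Methylation at chromosome 2 position 174299703 was higher with SAMe than with placebo by 20.1 percentage points in the authors' deposited table (q = 0.0212). Of the 161 sites higher with SAMe, 156 had a larger difference. The site lay 15.4 kb after the first annotated Gnas start and 28.0 kb before the next. It was an isolated site, 4.27 kb outside Gnasas1, the gene antisense to Gnas, on the side of the Gnasas1 start.

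The SAMe comparison set WT against SAMe-treated KO liver. The authors' deposited table listed 5 sites of these genes, all lower in KO, from −23.0 to −43.3. They fell in 3 of the 8 genes (Kcnq1, Blcap and Nnat), where 6.01% of annotated genes and 10.7% of coding genes had a lower site. None of the 8 genes had a higher site, where 0.066% of annotated genes had one. Of the placebo sites 4 (26.7%) were also listed with SAMe, and of the SAMe sites 4 (80.0%) were also listed with placebo. These percentages describe the sites of the 8 genes only, and the share over all listed sites was not counted. The placebo comparison listed 6721 sites in all and the SAMe comparison 5383, with 8525 positions over the 3 tables together. Listing in both WT comparisons was thus common over all sites too. All 4 shared sites of the 8 genes were at Blcap and Nnat. The 2 comparisons share their WT animals. Subtracting the placebo value from the SAMe value in the authors' deposited tables gave −6.15 percentage points at position 157554760 and 1.47 at position 157554784, both beyond Blcap. It gave −5.03 and −8.89 at the Nnat sites 153 and 169 bp from the start, from the authors' deposited tables. None of the 4 was listed between the KO groups. The subtraction rests on the 26 sites found in all 3 tables, where it held to within 1e-08 percentage points, and none of these was in the 8 genes.

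**Figure D3:**
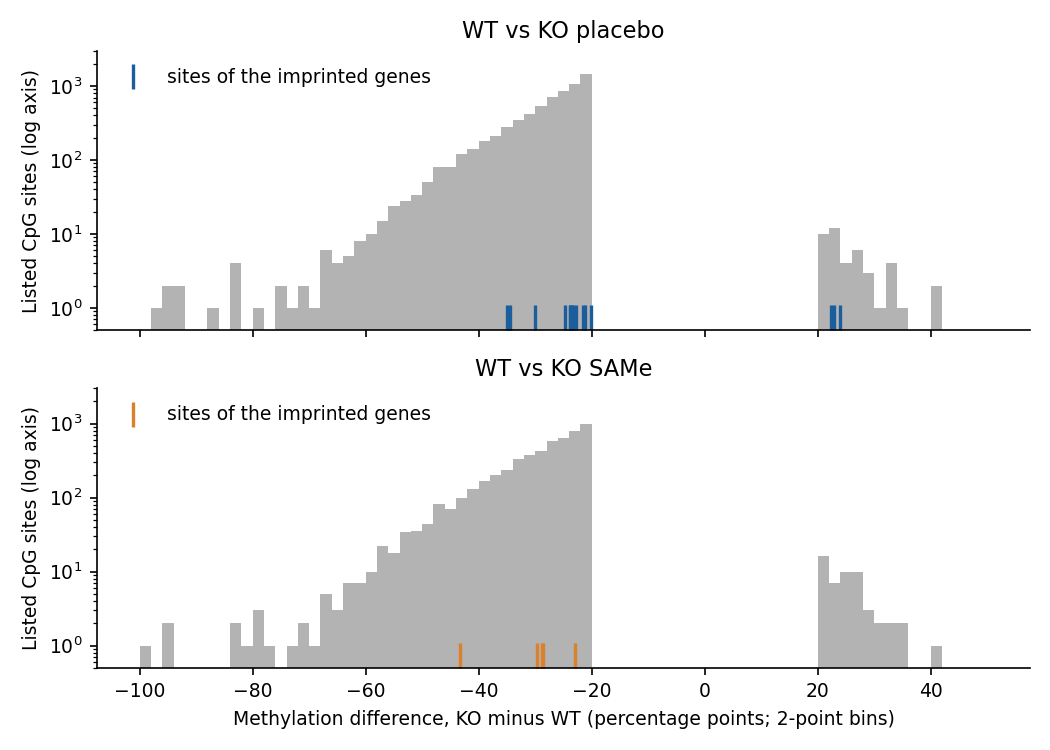
Number of listed CpG sites (log axis) by methylation difference, KO minus WT, in bins of 2 percentage points, for WT vs KO placebo (top) and WT vs KO SAMe (bottom); ticks at the base mark sites of the 8 imprinted genes. In the authors' deposited tables the imprinted sites lie between −35.0 and 23.9 (top) and between −43.3 and −23.0 (bottom), away from the longest losses near −98.

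Differences at the imprinted sites lay well inside the range of all listed sites. The 12 lower sites of the placebo comparison had a median of −23.6 percentage points in the authors' deposited table, where all 6678 lower sites had −25.9. The largest of the 3 Airn differences, 23.9, was itself the median of the 43 higher sites in that authors' deposited table. With SAMe the 5 sites had a median of −28.8 in the authors' deposited table and all 5330 lower sites had −26.7. The 17 positions fell into 8 runs when sites within 1 kb were joined. Sites in a run can be covered by the same fragments and are not independent measurements.

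Further imprinted genes were taken from a list of 76, of which 75 matched the RefSeq table and 67 were not among the 8. Of these 67 genes, 8 had a listed site in the placebo comparison, 6 with SAMe and 0 between the KO groups. The 8 genes left out had been picked for their listed sites, so these counts are lowered by that choice. With the 8 included, 15 of the 75 matched genes had a listed site with placebo, 9 with SAMe and 1 between the KO groups. Neither set of counts was tested against the shares that follow. Over all annotated genes the shares with a listed site were 7.19%, 6.07% and 0.356%, and over coding genes 12.5%, 10.8% and 0.658%. All 16 placebo sites of the 67 genes were lower, with a median of −26.6 in the authors' deposited table. With SAMe 10 of 11 were lower.

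The list held neighbours of the 8 genes. Ago2, which encodes an effector of small RNA silencing and follows Trappc9 on chromosome 15, had 4 lower sites from −26.8 to −33.5 with placebo and 3 from −29.2 to −32.2 with SAMe in the authors' deposited tables. Slc22a3, an organic cation transporter gene of the Igf2r domain on chromosome 17 that is imprinted in placenta, had 2 sites at −22.0 and −21.4 with placebo in the authors' deposited table. These were lower, while the Airn sites of the same domain were higher. Elsewhere, the paraoxonase gene Pon2 had 3 sites 1319 to 1478 bp outside the gene. They stood from −27.9 to −31.8 with placebo and from −25.6 to −34.1 with SAMe in the authors' deposited tables. Cdh15, a cadherin gene of muscle, had 1 site at −29.0 and −29.4 in the authors' deposited tables for the 2 WT comparisons. For placebo the authors' deposited table also gave Ppp1r9a sites at −26.4 and −24.4, the AMP deaminase gene Ampd3 1 at −23.1, the noncoding RNA Mirg 2 at −21.2 and −21.9 and H13, a signal peptide peptidase gene, 1 at −20.1. For SAMe the authors' deposited table gave Ampd3 sites at −24.9 and −21.7 and an H13 site at −20.7. Peg12 had a higher site with SAMe, by 20.5 (q = 3.67e-06) in the authors' deposited table.

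**Figure D4:**
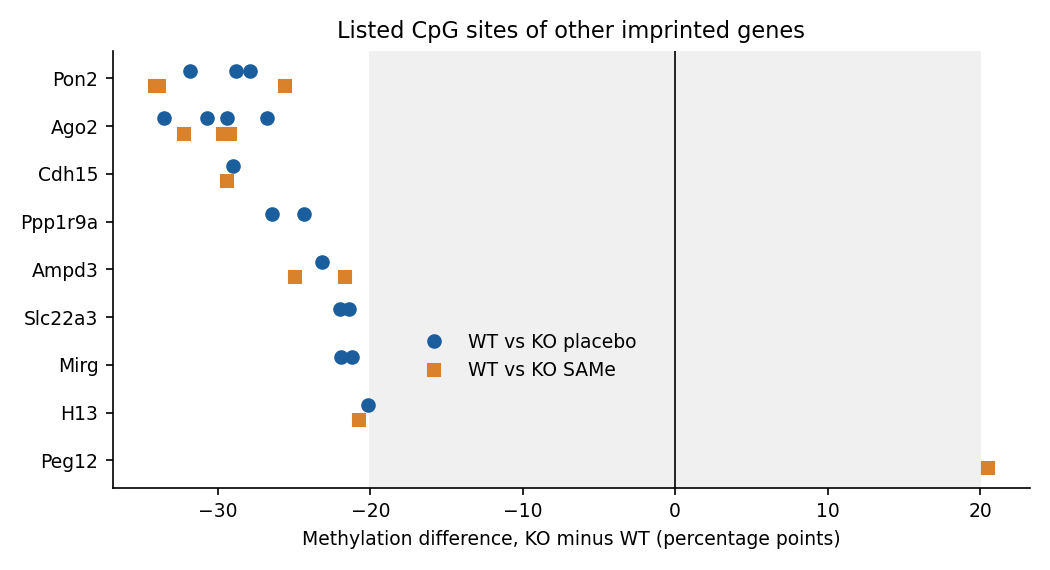
Methylation difference, KO minus WT, in percentage points at listed CpG sites of 9 imprinted genes other than the 8, 1 point per site and table (circles, WT vs KO placebo; squares, WT vs KO SAMe), with the unlisted range in grey. All sites lie left of −20 apart from the Peg12 site at 20.5.

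Distance to imprinted starts was measured for 12 genes whose start lies in a maternally methylated control region and that had a RefSeq window, a set written after the values were seen. A placebo site lay within 1 kb of the start at 2 of the 12, Airn (279 bp) and Nnat (153 bp). With SAMe this held for Nnat alone, and the site nearest the Airn start was 170 kb away. Airn and Nnat are both among the genes chosen at the outset by their differences in these tables. The 2 of 12 is therefore a description only. The share of all annotated starts with a listed site within 1 kb was not counted. Mcts2, which lies inside H13, had its nearest site at 11.8 kb with placebo and 19.2 kb with SAMe. Kcnq1ot1 had it at 36.6 and 36.0 kb. For Gnas, Plagl1, Mest, Grb10, Zrsr1, Nap1l5, Peg3 and Snrpn no listed site of the WT comparisons lay within 50 kb of a start. Whether fragments at these starts were covered is not known from the tables.

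**Figure D5:**
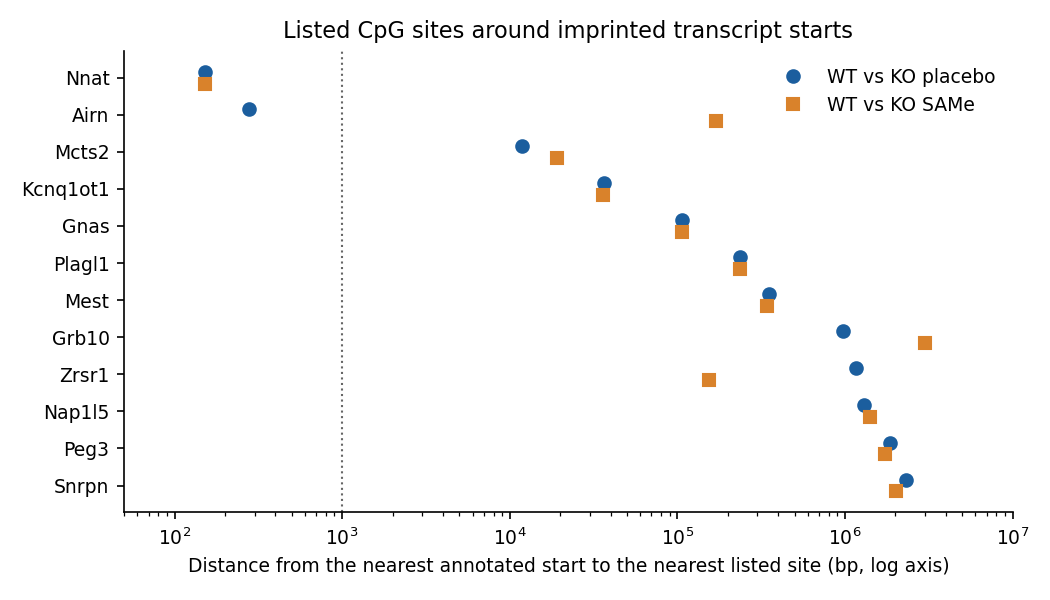
Distance in bp (log axis) from the nearest annotated start of 12 imprinted genes to the nearest listed CpG site in WT vs KO placebo (circles) and WT vs KO SAMe (squares), with 1 kb as a dotted line. Nnat lies left of the line in both comparisons, at 153 bp, and Airn in WT vs KO placebo alone, at 279 bp.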

How the data were processed

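Liver DNA of 19 mice was cut with MspI and TaqαI and bisulfite sequenced, per the labels' protocols. CASAVA 1.8.2, Trim Galore, Bismark, methylKit and mm10 appear as tools and build, per the submitters' processing notes, without order or settings. The files are 3 tables of the authors' own group comparisons. Each line holds a p-value and q-value deposited by the authors and a signed score deposited by the authors, the methylation difference in percentage points. Every listed absolute difference exceeded 20 and the largest q-value was 0.0495. Which test gave the p-values, and whether it used the spread between animals, is not given in the sources used here. Depth per sample is unknown.

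Sites were assigned to 49980 RefSeq genes (GRCm38.p6) with 2 kb added at each end. That table gives no exons, so exon and intron were not separated. Starts and strands came from the RefSeq promoter windows. Gene assignment was tested on simulated data. Scripts used Python 3.11.15, pandas 2.3.3 and matplotlib 3.10.9. The members and lists were chosen with earlier results of these data known. The text names all 8 genes with every listed site, and every gene of the imprinted and imprint maintenance lists with a listed site. Alternatives varied the flank, the thresholds, the joining distance and the genes counted.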

Additional observations from a re-analysis of the deposited data

How the results depend on the processing

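Of 50 alternative values for 13 results, 29 kept within 1.5 times or 1 SD over sites of the value reported and 21 did not. At 25 percentage points 3 sites of the 8 genes remained in the placebo comparison, and 3 at 30, all lower, so that the Airn sites were no longer counted. The wider list, counted here with the 8 genes included, had 15 genes with a site for placebo against WT and 9 for SAMe against WT. At 25 and 30 percentage points this fell to 7 and 5 genes for placebo, and to 5 and 4 for SAMe. For SAMe 4 of the 5 sites of the 8 genes reached 25 percentage points, 1 reached 30, and 3 lay inside the gene with no flank. The single Gnas site gave 0 at 25 or 30 percentage points and at q under 0.01 or 0.001, for the 8 genes and for the wider list. Between the KO groups the wider list with the 8 genes included had 1 gene, Gnas, at a flank of 2 kb. With flanks of 5 or 10 kb it had 2, because Gnasas1 (listed as Nespas) then takes in the same Gnas site. Counting coding genes alone raised the share of genes with a site to 12.5%, 10.8% and 0.658%. No paired analysis was possible because the tables hold no value per animal. Leaving out animals could not be run for the same reason.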

Other observations

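A site in the stretch between H19 and Igf2 was missed by the limit of 2 kb. H19, a maternally expressed noncoding RNA, shares with Igf2 a paternally methylated control region that lies just before the H19 start on the side facing Igf2. In WT vs KO placebo the authors' deposited table gave −20.4 percentage points (q = 8.34e-04) at chromosome 7 position 142581094, 2948 bp beyond the H19 end that faces Igf2. It was not listed in the other tables, and it was singled out after its value was seen.

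Beyond the 3′ end of Blcap, in a stretch of chromosome 2 with 0 annotated genes within 10 kb, lay a run of lower sites with more members than any run in the 8 genes. Between positions 157540181 and 157540437 the authors' deposited tables listed 7 sites in WT vs KO placebo with a mean of −33.4 and 8 in WT vs KO SAMe with a mean of −38.3, the largest loss being −57.1 with SAMe. At the 7 sites in both tables the loss was larger with SAMe at 6. This run was chosen after its values were seen.

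A further list held 20 coding genes for factors linked to setting or protecting methylation at imprints. Of these 20, 1 had a listed site in WT vs KO placebo, 0 in WT vs KO SAMe and 1 between the KO groups. Over all coding genes the shares with a listed site were 12.5%, 10.8% and 0.658% in the same order. Arid4a, a chromatin regulator, had a site at −22.5 (q = 5.79e-05) in WT vs KO placebo in the authors' deposited table. Dppa3, which protects maternal methylation in the early embryo, had a site higher with SAMe than with placebo by 22.5 (q = 0.0133) in the authors' deposited table.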
